A study of Aspergillus nidulans with 32 samples.

Results

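Mycelium of the mould Aspergillus nidulans was moved for 1 h either into used medium or into a salt solution, and its polyadenylated RNA was sequenced. The naive used-medium cultures had grown for 24 h in minimal medium, had been kept for 2 h in fresh minimal medium, and then spent 1 h in used medium, taken from A. nidulans after 48 h of growth, which per the labels leaves carbon or nitrogen used up. The naive salt cultures had the same growth and the same 2 h in fresh medium, and then spent 1 h in a salt solution with neither a carbon nor a nitrogen source. The minimal medium held glucose and nitrate. The groups were chosen by their labels, and they comprise 8 of the 32 libraries of the series, 2 technical libraries from each of 2 cultures (A and B) per group, or 4 of 16 cultures. Pre-starved cultures in used medium or in salt, which had grown for 20 h and spent 4 h in salt before the 2 h in fresh medium, are given beside them, as are naive refed cultures, which were harvested after the 2 h in fresh medium. Both WT FGSC#4 and a strain with alcA(p)-sGFP-aflR (RKIS42.17), whose aflR is driven by the alcA promoter, are listed in the growth protocol without a link to single samples, so the levels below, those of alcA and aflR above all, hold for an unstated strain. The labels do not give the pH of the used medium or what else it held.

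A fungus that outgrows its medium exhausts sugar and nitrate while the medium fills with its own products, and a salt solution lacks the nutrients and the products alike. A. nidulans adjusts to such changes through regulators of carbon, nitrogen, iron and pH, among them PacC, the transcription factor that activates genes at alkaline pH, and through secreted hydrolases that release food from polymers. Its genes for secondary metabolites, such as penicillin, sterigmatocystin and terrequinone, lie in clusters of neighbours that are often silent during rapid growth.

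Used medium and salt gave different transcriptomes within 1 h. The genes for penicillin, terrequinone and orsellinic acid, for alcohol use, for protein folding in the endoplasmic reticulum and for secreted proteases were higher in used medium, while the proline genes prnD and prnB and several genes for making the extracellular siderophore were lower. With edgeR's quasi-likelihood test, fitted to all 16 cultures and adjusted by Benjamini-Hochberg over 10022 tested genes, 1463 genes (14.6%) lay under an adjusted p of 0.05 and are said here to be called. Of these, 811 (8.09%) were higher and 652 (6.51%) lower in used medium than in salt, and the median absolute log2 change of the called genes was 0.78. A log2 change of at least 1 was reached by 296 higher genes (2.95%), and one of at most -1 by 253 lower genes (2.52%). The cultures of the 2 groups did not overlap in 5972 genes (59.6%), and in 1461 of the 1463 called.

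The totals of the 8 libraries ran from 19634577 to 27890562 counts and those of the 4 cultures from 39526910 to 55418171. Levels are given in CPM, counts scaled to a common library size with trimmed means (TMM), for culture A and then culture B, and changes as log2 of used medium over salt with their standard error (SE). Between technical libraries the chi-square over its degrees of freedom was 2.12 to 2.29. Between cultures A and B of naive used medium it was 272, the largest value of the 8 groups, and between those of naive salt 62.7. Genes with many counts weigh most in this value, among them AN5245, which differed widely between used cultures A and B (below). More than 2-fold between A and B (after adding 0.5 CPM) were 177 tested genes in used medium and 78 in salt. The number of genes called fell to 685 without used culture B (434 higher, 251 lower), to 568 without salt A and to 816 without salt B, and 424 were called whichever 1 of the 4 cultures was left out. Scaling by library totals alone moved the median log2 change of all genes to -0.16, against -0.01 with TMM, so changes are relative to the bulk of genes. Of the called genes 55.4% were higher, against 29.1% with library totals, 42.2% with DESeq2's size factors and 39.9% by DESeq2. On the third principal component of log2 CPM, with 4.83% of the variance, the used cultures lay at 25.2 and 28.0 and the salt cultures at -22.3 and -19.2.

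**Figure D1:**
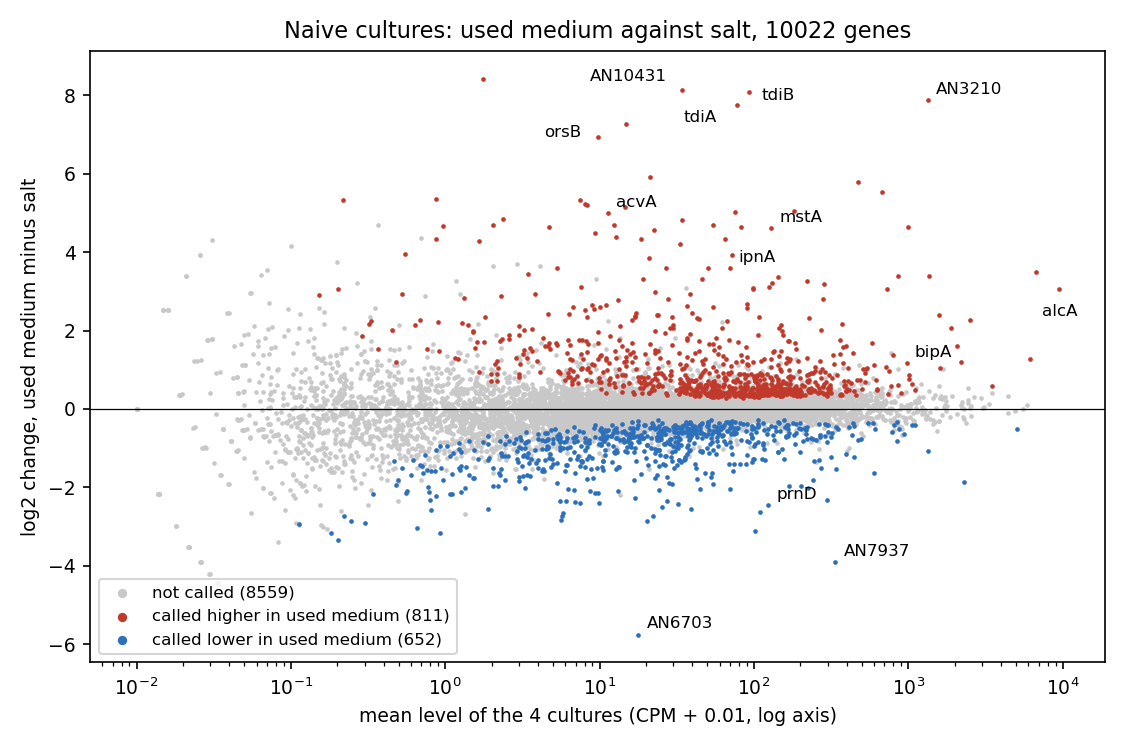
Log2 change between naive used medium and naive salt (vertical axis) against the mean level over the 4 cultures (CPM plus 0.01, horizontal log axis), with 1 point per tested gene. Red points are the 811 genes called higher in used medium, blue points the 652 called lower and grey points the rest, and tdiB, tdiA and AN3210 stand near the top at log2 changes of 8.09, 7.74 and 7.87.

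Of 6 markers of spore formation edgeR called none, and 1, the regulator gene abaA, was called by DESeq2 and had an unadjusted edgeR p under 0.05. It stood at 1.07 and 0.954 CPM in used medium and 2.57 and 1.71 CPM in salt (log2 change -1.08, adjusted p 0.0807). The summed level of these conidiation markers (brlA, abaA, wetA, rodA, wA and yA) was 50.0 and 38.0 CPM in used medium, against 42.8 and 48.5 CPM in salt and 24.0 and 22.4 CPM in refed cultures. The spore hydrophobin gene rodA stood at 1.70 and 1.36 CPM in used medium and at 3.11 and 2.35 CPM in salt (log2 change -0.83, adjusted p 0.361). The glycolytic gene gpdA was at 1076 and 1112 CPM in used medium and at 1108 and 1187 CPM in salt. In such bulk RNA, fewer cells with a transcript and less transcript per cell cannot be told apart.

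Penicillin genes were much higher in used medium. The cluster has a gene for each step: acvA for the tripeptide synthetase, ipnA for isopenicillin N synthase and aatA for the acyltransferase that finishes the molecule. The gene acvA stood at 16.2 and 27.7 CPM in used medium, against 0.520 and 0.845 CPM in salt (log2 change 5.0, SE 0.45, adjusted p 2.56e-05). For ipnA the levels were 127 and 130 CPM in used medium and 10.6 and 10.6 CPM in salt (log2 change 3.60, SE 0.41, adjusted p 1.59e-04). For aatA they were 279 and 212 CPM in used medium and 49.9 and 61.5 CPM in salt (log2 change 2.14, SE 0.26, adjusted p 2.47e-04). All 3 tested genes were called higher, with a median log2 change of 3.60 against -0.01 over all genes, and all 3 calls held whichever culture was left out. Refed cultures had about as little acvA and ipnA as salt cultures, 1.05 and 0.947 CPM of acvA and 6.22 and 7.39 CPM of ipnA. The gene aatA differed, with 3.08 and 2.68 CPM in refed cultures, below both media.

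The terrequinone cluster had the highest median log2 change of the 42 lists, 7.74. Its product, a bisindolyl quinone, is made from a tryptophan derivative by the synthetase of tdiA, the prenyltransferase of tdiB and the aminotransferase of tdiD. The gene tdiA had 155 and 155 CPM in used medium, against 0.520 and 0.922 CPM in salt (log2 change 7.74, SE 0.73, adjusted p 3.68e-05). The gene tdiB had 189.8 and 183 CPM in used medium, against 0.927 and 0.446 CPM in salt (log2 change 8.09, SE 0.57, adjusted p 5.83e-06, and 8.70 without salt A). The gene tdiD had 22.2 and 26.9 CPM in used medium, against 1.45 and 0.891 CPM in salt (log2 change 4.39, SE 0.48, adjusted p 1.13e-04). In all 3 genes both used cultures lay far above both salt cultures, which differed from each other by more in proportion than the used cultures did. The call of each held without any 1 culture. The neighbours AN8518, at 121 and 89.5 CPM in used medium and 4.62 and 3.53 CPM in salt, and AN8520 (log2 change 2.29, SE 0.23, adjusted p 5.98e-05) moved the same way, so that 5 tested genes in a row, from tdiA to AN8520, were called higher.

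In the orsellinic acid cluster 3 of 5 tested genes were called higher (2 by limma on all libraries), with a list median of 4.69. They were orsA, for the polyketide synthase, orsB and orsC, for a tyrosinase. Levels of orsB were 14.6 and 24.2 CPM in used medium and 0.130 and 0.184 CPM in salt (log2 change 6.92, SE 0.96, adjusted p 6.33e-04). From technical library 1 alone the log2 change of orsB was 6.07 and from library 2 alone 9.06, and limma on all libraries gave 7.31 and did not call it. For orsA they were 15.1 and 33 CPM in used medium and 0.683 and 1.17 CPM in salt (log2 change 4.69, SE 0.81, adjusted p 0.00255). For orsC they were 7.70 and 23.5 CPM in used medium and 0.553 and 0.277 CPM in salt (log2 change 5.23, SE 0.85, adjusted p 0.00176). Culture B was the higher of the used cultures in each, and without it the log2 change was 4.02 for orsA and 4.21 for orsC, both still called, while without used A that of orsC was 5.82. The other members, orsD and orsE, had log2 changes of 0.40 and 0.58 and were not called (adjusted p 0.434 and 0.770).

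Sterigmatocystin genes were called higher in part of their cluster. Sterigmatocystin is a carcinogenic polyketide, aflR encodes the activator of its cluster, and stcA encodes the polyketide synthase. Of 17 tested genes 5 were called higher and 0 lower (8 at an unadjusted edgeR p under 0.05, 6 called by DESeq2 and 3 by limma on all libraries), with a median log2 change of 0.43. The gene aflR had 11.7 and 12 CPM in used medium, against 4.44 and 2.52 CPM in salt (log2 change 1.77, SE 0.31, adjusted p 0.00257), and 0.465 and 0.261 CPM in refed cultures. The genes beside it, stcE, AN7822 and AN7823, were called higher too and made a run of 4 with it. AN7822 had 49.0 and 73.7 CPM in used medium and 19.0 and 13.5 CPM in salt (log2 change 1.92, SE 0.25, adjusted p 4.73e-04). AN7823 was at 4.29 and 13.7 CPM in used medium and at 0.439 and 0.277 CPM in salt (log2 change 4.64, 5.25 without used A and 3.58 without used B). The call of stcE (log2 change 1.90, SE 0.37, adjusted p 0.00557) was lost without used B (1.41) or salt A (1.89), and that of AN7812 (2.15, SE 0.58, adjusted p 0.0291) without any 1 culture (1.95 to 2.37). The synthase gene stcA, unlike the activator gene, was not called. It had 1.52 and 1.64 CPM in used medium and 1.94 and 2.40 CPM in salt (log2 change -0.45, SE 0.26, adjusted p 0.275), and stcU, a gene of a late step, stood at 0.138 and 0.0715 CPM in used medium and 0.0488 and 0.123 CPM in salt.

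Of the 12 tested aspercryptin genes 6 were called higher, with a median log2 change of 1.54, and limma on all libraries called 4, without AN7881, AN11028 and AN7883. The gene atnA, for the synthetase of that lipopeptide, had 3.83 and 3.41 CPM in used medium, against 1.12 and 0.968 CPM in salt (log2 change 1.79, SE 0.26, adjusted p 8.30e-04). Refed cultures had more than either, 16.6 and 22.1 CPM. A run of 6 genes called higher went from AN7879 to atnA, with log2 changes of 1.5 to 4.34. Within it the calls of AN7880 (log2 change 1.67, 1.40 without salt A), AN11028 (2.19, 2.23 without salt A and 2.15 without salt B) and AN7883 (1.96, 1.76 to 2.14 without any 1 culture) were lost on leaving a culture out, and AN7881 moved to 3.72 without salt A and 5.56 without salt B. In the benzaldehyde derivative cluster 1 of 11 genes was called higher, near the 8.09% of all tested genes called higher. It was dbaA, at 31.9 and 13.8 CPM in used medium and 3.87 and 2.84 CPM in salt (log2 change 2.77, SE 0.76, adjusted p 0.0286). That call was lost without used A (2.04), salt A (3.01) or salt B (2.56). Used culture A was above B in this cluster, AN7893 for example at 12.8 and 2.48 CPM, whereas B was above A in the orsellinic acid genes called.

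**Figure D2:**
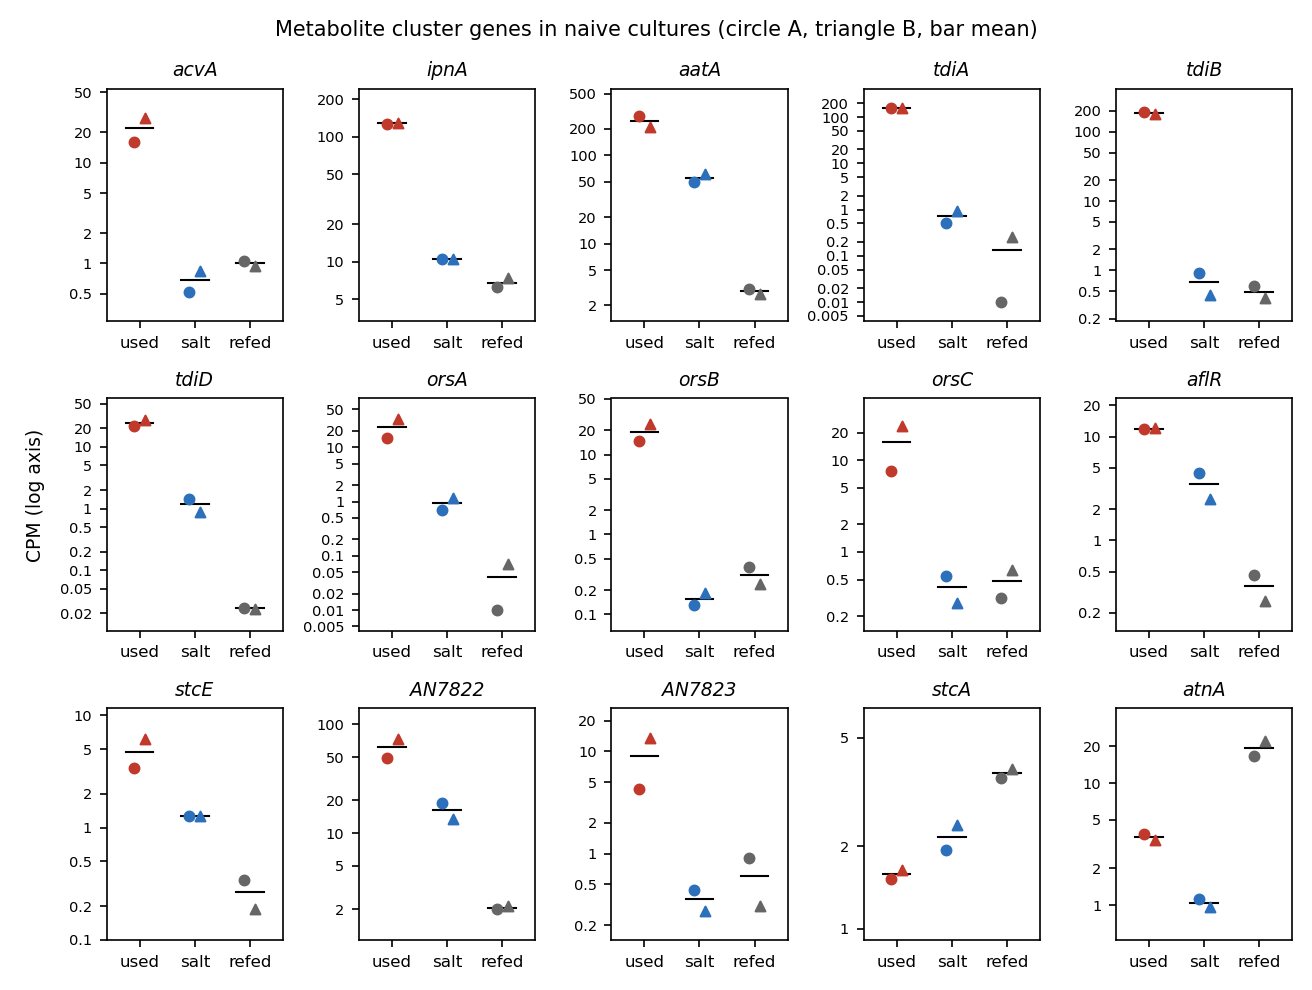
Levels in CPM (vertical log axis, each panel with its own range) of 15 metabolite cluster genes in naive used, salt and refed cultures, with circles for culture A, triangles for culture B and a bar for their mean. Values under 0.01 CPM are drawn at 0.01. In the penicillin, terrequinone and orsA, orsB and orsC panels both used cultures lie above both salt cultures, while for stcA they lie below them and that difference was not called.

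Genes known from other work to be expressed at alkaline pH were mostly higher in used medium. Of the 5 tested members of that list, which has ipnA, prtA and pacC in common with other lists here, 4 were called higher (3 without used B), with a median log2 change of 2.00. The gene enaA, for a sodium-exporting ATPase, had 2462 and 3605 CPM in used medium, against 751 and 697 CPM in salt and 49.1 and 55.4 CPM in refed cultures (used medium over salt, log2 change 2.07, SE 0.27, adjusted p 3.72e-04). The regulator gene pacC itself had 433 and 505 CPM in used medium and 303 and 309 CPM in salt (log2 change 0.62, SE 0.12, adjusted p 0.00656). Its call was lost without used B (0.50) or salt A (0.60). Of the 7 genes of the pH signalling pathway pacC was the 1 called higher and palF the 1 called lower. Of all tested genes 8.09% were called higher and 6.51% lower. The gene palF, for the arrestin-like protein of the pathway, had 23.6 and 23.2 CPM in used medium and 44.3 and 38.6 CPM in salt (log2 change -0.82, SE 0.13, adjusted p 0.00137). The acidic-pH list of 3 genes had no call, gabA at a log2 change of -0.20 (adjusted p 0.497), xlnB at -0.29 and stcU at 0.30. The alkaline list's remaining member, the xylanase gene xlnA, was not called, at 1.72 and 0.882 CPM in used medium and 0.602 and 0.907 CPM in salt (adjusted p 0.211).

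Genes for alcohol use were higher in used medium throughout their list. The alc genes let A. nidulans grow on ethanol, alcR encoding their activator, alcA the alcohol dehydrogenase and aldA the aldehyde dehydrogenase. The gene alcA had 24092 and 9569 CPM in used medium, against 1459.6 and 2601 CPM in salt and 415 and 342 CPM in refed cultures (used medium over salt, log2 change 3.05, SE 0.71, adjusted p 0.0139). For aldA the levels were 10782 and 6523 CPM in used medium and 3462 and 3716 CPM in salt (log2 change 1.27, SE 0.33, adjusted p 0.0222). For alcR they were 324 and 309 CPM in used medium and 162 and 174 CPM in salt (log2 change 0.92, SE 0.26, adjusted p 0.0350). All 6 tested members were called higher, with a median log2 change of 1.97. Each call was lost on leaving out at least 1 culture, and 4 stayed without used B. Without used A the log2 change was 2.24 for alcA, 0.86 for aldA, 1.96 for alcM and 2.22 for alcS, all not called, and without salt A it was 2.69, 1.22, 2.44 and 2.70 for the same genes, also not called. Without salt B they were not called either, at 3.53, 1.32, 2.97 and 3.56. The calls of alcR (0.87 to 0.97) and alcB (0.54 to 0.70), a second alcohol dehydrogenase gene, were lost without any 1 culture. With library totals 4 of the 6 stayed called (alcR and alcB did not), and with DESeq2's size factors 5.

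Other carbon genes differed one by one, and of all tested genes 8.09% were called higher. The sugar transporter gene mstA had 207 and 292 CPM in used medium, against 9.98 and 10.5 CPM in salt and 3.35 and 2.87 CPM in refed cultures (used medium over salt, log2 change 4.61, SE 0.28, adjusted p 1.17e-06), and it was the 1 of 5 sugar transport and carbon repression genes called. Of 7 trehalose and glycerol genes 2 were called higher. They were treA, for an acid trehalase, at 730.1 and 482 CPM in used medium and 101 and 172 CPM in salt (log2 change 2.15, SE 0.30, adjusted p 6.86e-04), and tpsA, for trehalose-6-phosphate synthase (0.98, SE 0.23, adjusted p 0.0142). The call of tpsA was lost without used A (0.79) or salt A (0.73). A gene for making trehalose and a gene for breaking it down were thus both higher.

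The glycolysis, starch and cellulose lists held 2, 2 and 1 calls, where 14.6% of all tested genes were called, 8.09% higher and 6.51% lower. Of 12 glycolysis genes 2 were called lower, pfkA, for phosphofructokinase, at 22.7 and 28.5 CPM in used medium and 34.8 and 37.4 CPM in salt (log2 change -0.50, SE 0.13, adjusted p 0.0261), and tpiA, for triose phosphate isomerase (-0.50, SE 0.12, adjusted p 0.0164). Neither was called without salt A (-0.55 and -0.55) or salt B (-0.44 and -0.45), nor without used A (-0.34 and -0.47), and tpiA was not called without used B either (-0.53). Starch genes had 1 call each way, agdB, for an alpha-glucosidase, at 205 and 283 CPM in used medium and 58.9 and 63.1 CPM in salt (2.00, SE 0.25, adjusted p 2.72e-04), and agdE lower (-0.64, SE 0.14, adjusted p 0.00967), which was lost without used A (-0.62), used B (-0.67) or salt A (-0.64). Among 9 cellulose and xylan genes the beta-glucosidase gene bglA was the 1 called, at 416 and 317 CPM in used medium and 181 and 183 CPM in salt (1.01, SE 0.13, adjusted p 4.77e-04).

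Genes for secreted hydrolases of the fungus's own polymers, the proteases above all, were higher in used medium. The metalloprotease gene pepJ had 85.2 and 82.2 CPM in used medium, against 8.28 and 8.48 CPM in salt and 0.441 and 0.142 CPM in refed cultures (used medium over salt, log2 change 3.32, SE 0.36, adjusted p 1.02e-04). The alkaline protease gene prtA had 524 and 345 CPM in used medium and 97.0 and 120.1 CPM in salt (2.00, SE 0.23, adjusted p 1.72e-04). The chitinase gene chiB had a smaller change, at 110.2 and 107 CPM in used medium and 73.0 and 71.6 CPM in salt (0.59, SE 0.11, adjusted p 0.00564). The calls of pepJ, prtA and chiB held without any 1 culture. The glucanase gene engA was not called (0.28, adjusted p 0.166).

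Genes of the endoplasmic reticulum, where secreted proteins fold, were all higher in used medium. They include hacA, for the transcription factor of the unfolded protein response, bipA, for the main chaperone, clxA, for calnexin, and pdiA and prpA, for disulfide isomerases. The gene bipA had 1366 and 1331 CPM in used medium, against 607 and 599 CPM in salt and 411 and 388 CPM in refed cultures (used medium over salt, log2 change 1.16, SE 0.12, adjusted p 9.81e-05). For clxA the levels were 735 and 719 CPM in used medium and 355 and 353 CPM in salt (1.04, SE 0.13, adjusted p 3.79e-04). For pdiA they were 665 and 704 CPM in used medium and 363 and 357 CPM in salt (0.93, SE 0.10, adjusted p 8.07e-05). The cultures of a medium lay close together, and the smallest changes were those of hacA (0.74, SE 0.12, adjusted p 0.00155) and prpA (0.53, SE 0.09, adjusted p 0.00184). All 5 tested genes were called, with a median log2 change of 0.93, with each scaling and without any 1 culture. The heat shock list, whose chaperones mostly work outside that compartment, had 0 of 6 members called by edgeR, 0 at an unadjusted p under 0.05, 0 called by DESeq2 and 1 by limma on all libraries.

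Nitrogen genes, where they were called, were lower in used medium. Among the 4 proline genes prnD and prnB were called and prnA and prnC were not. The proline oxidase gene prnD had 37.4 and 38.9 CPM in used medium, against 195 and 224 CPM in salt and 1.10 and 1.30 CPM in refed cultures (used medium over salt, log2 change -2.46, SE 0.30, adjusted p 2.53e-04). The proline permease gene prnB had 8.53 and 6.65 CPM in used medium, against 45.6 and 40.5 CPM in salt (-2.50, SE 0.44, adjusted p 0.00283). The gene prnD was therefore above the refed level in either medium, and farther above it in salt. The regulator gene prnA (-0.03, adjusted p 0.929) and prnC (-0.10, adjusted p 0.723), for the second enzyme of proline breakdown, overlapped between the media. The third of 14 alternative nitrogen genes called, the acetamidase gene amdS (-0.58, SE 0.15, adjusted p 0.0210), was lost without used B (-0.38), salt A (-0.61) or salt B (-0.54).

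Nitrate genes had a median log2 change of -0.43. The nitrite transporter gene nitA had 6.91 and 5.20 CPM in used medium, against 14.8 and 15.4 CPM in salt and 609.8 and 592 CPM in refed cultures (used medium over salt, log2 change -1.32, SE 0.17, adjusted p 3.08e-04). The nitrate reductase gene niaD, at 14.8 and 10.3 CPM in used medium and 15.1 and 17.9 CPM in salt, was not called (-0.39, adjusted p 0.162). Of 6 nitrate genes 2 were called lower, and the second, nrtB (-0.47, SE 0.12, adjusted p 0.0198), was lost without used B (-0.35), salt A (-0.50) or salt B (-0.44). Of 5 ammonium genes gdhA, for a glutamate dehydrogenase, was called lower (-0.61, SE 0.12, adjusted p 0.00595), and not without used B (-0.55) or salt A (-0.58). Of all tested genes 6.51% were called lower.

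Siderophore genes moved in both directions. A. nidulans makes ferricrocin, which stores iron inside the cell, with the synthetase of sidC, and triacetylfusarinine C, which is secreted to fetch iron, with enzymes such as those of sidI, sidF, sidH and sidD. The gene sidC had 296 and 363 CPM in used medium, against 158 and 176 CPM in salt (log2 change 0.98, SE 0.13, adjusted p 5.67e-04). The gene sidD had 4.94 and 5.13 CPM in used medium, against 11.3 and 17.4 CPM in salt and 299 and 357 CPM in refed cultures (used medium over salt, -1.51, SE 0.23, adjusted p 0.00125). The neighbours sidF (-1.43, SE 0.21, adjusted p 9.34e-04) and sidH (-1.40, SE 0.19, adjusted p 5.33e-04) were lower too. Of these extracellular siderophore genes sidD, given with its refed level, was far below that level in both media. A run of 6 genes called lower went from AN6239, named sidJ in the reference, over AN6238 and AN6237 to sidD, sidH and sidF, with a median log2 change of -1.52. In it, the call of AN6238 (-1.97) was lost without used A (-1.72). Of 14 siderophore and iron regulation genes 2 were called higher and 5 lower, with a median of -0.07. Of all tested genes 8.09% were called higher and 6.51% lower. The calls of sidI (-1.44, and -2.29 from technical library 1 alone) without used B (-1.33), of the transporter gene mirB (-0.45) without used A (-0.32) or salt A (-0.36), and of hapB (0.44) without any 1 culture (0.35 to 0.53) or with library totals or size factors were lost.

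**Figure D3:**
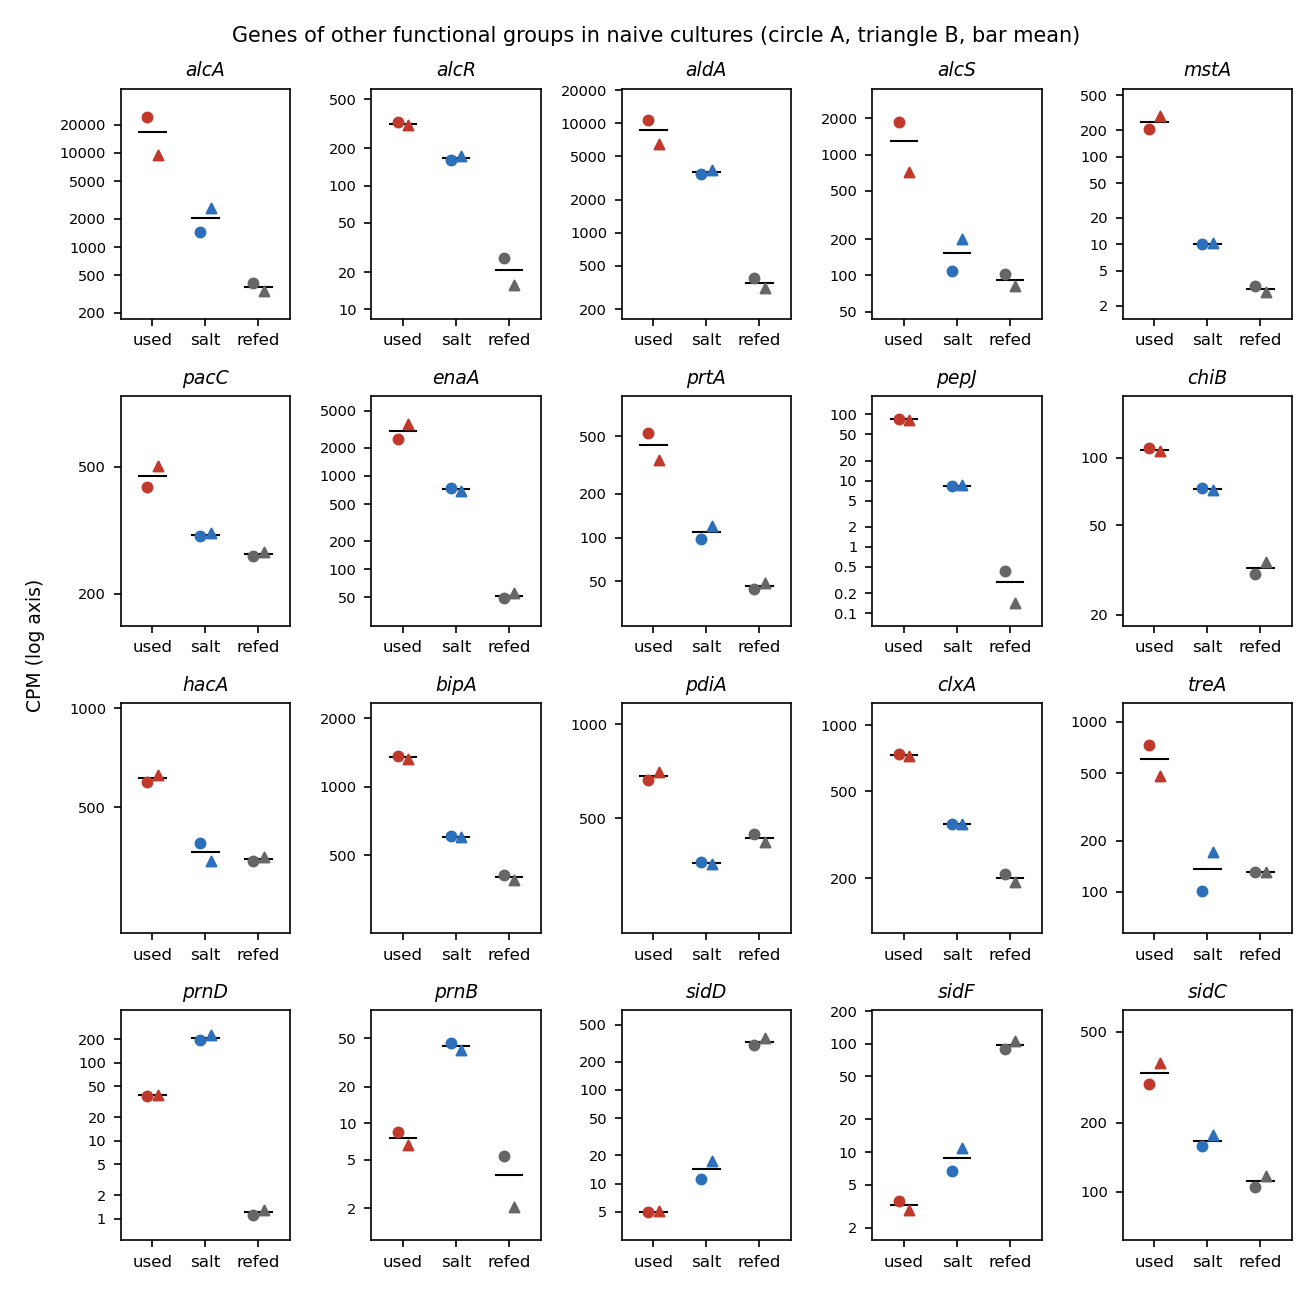
Levels in CPM (vertical log axis, each panel with its own range) of 20 genes for alcohol use, sugar transport, pH response, hydrolysis, protein folding, trehalose, proline and siderophores in naive used, salt and refed cultures, with circles for culture A, triangles for culture B and a bar for their mean. Used medium lies above salt in every panel but those of prnD, prnB, sidD and sidF, where it lies below.

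The cell wall, regulator and sexual development lists held 3, 2 and 1 calls, where 8.09% of all tested genes were called higher and 6.51% lower. Of 11 cell wall synthase genes 3 were called higher, though the list median was -0.05: the glucanosyltransferase gene gelA at 963 and 1125 CPM in used medium and 644 and 713 CPM in salt (log2 change 0.62, SE 0.13, adjusted p 0.00806) and the chitin synthase genes AN7032 (0.39) and AN4566 (0.36). With library totals gelA alone stayed called, and none of the 3 was called without used B (0.50, 0.29 and 0.36) or salt A (0.55, 0.37 and 0.38). AN7032 and AN4566 also lost their calls without salt B (0.42 and 0.33), and AN4566 without used A (0.35). Of 8 velvet and secondary metabolism regulators velB (0.44, SE 0.11, adjusted p 0.0188) and laeA (0.48, SE 0.10, adjusted p 0.00723), for proteins of the complex that links light to metabolite production, were called higher, but with library totals 0 were higher and 1 lower. The call of velB was lost without used A (0.33) or salt A (0.36), and that of laeA, at 86.6 and 82.4 CPM in used medium and 61.1 and 60.3 CPM in salt, without salt A (0.49) or salt B (0.47). Of 8 sexual development regulators rosA, for a repressor of sexual development, was the 1 called, at 9.14 and 9.54 CPM in used medium and 50.1 and 28.4 CPM in salt (-2.07, SE 0.28, adjusted p 6.01e-04).

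A few calls came from 3 more lists, where 8.09% of all tested genes were called higher and 6.51% lower. Of 6 hydrophobin and conidial pigment genes ivoB was lower (-2.10, SE 0.60, adjusted p 0.0349), and not without any 1 culture (-2.21 to -2.01). Of 13 oxidative stress genes the catalase gene catB was higher (0.65, SE 0.14, adjusted p 0.00806), and not without salt A (0.52). Of 11 signalling genes mpkB, for a MAP kinase (-0.46, SE 0.11, adjusted p 0.0139), and rasA (-0.35, SE 0.08, adjusted p 0.00848) were lower. Leaving out any 1 culture ended the call of mpkB (-0.47 to -0.44), and leaving out used B or salt A that of rasA (-0.35 in each case).

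In 16 of the 42 lists no member was called by edgeR. These were nitrogen regulation, gluconeogenesis with the glyoxylate cycle, autophagy, acidic pH, heat shock, asexual development, histones, chromatin modifiers, amino acid and vitamin synthesis, the clusters for monodictyphenone, asperthecin, emericellamide, aspyridone, asperfuranone and cichorine, and 4 further metabolite synthases. Of their 101 tested genes 14 had an unadjusted edgeR p under 0.05, DESeq2 called 7, limma on all libraries called 10 and edgeR with library totals called 5. Their list medians ran from -0.23 to 0.46. Over all 42 lists 70 of 310 tested members were called, 51 of them higher, while of all 10022 tested genes 14.6% were called and 8.09% called higher. The lists were chosen with earlier results of these data known, so these shares do not test whether listed genes responded more. Over all genes DESeq2 called 1994, limma on all libraries 2015 and edgeR with library totals 1659.

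**Figure D4:**
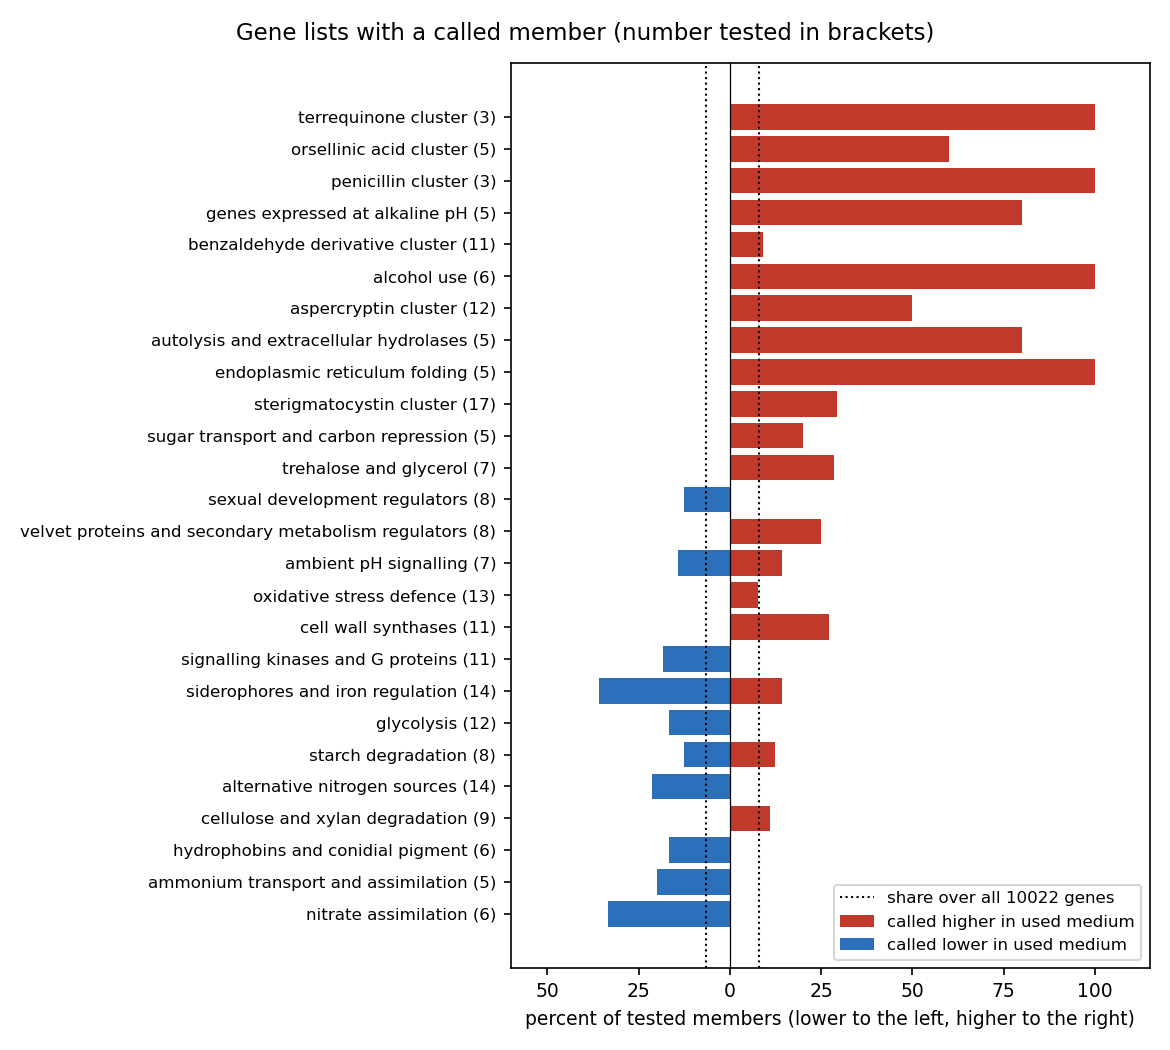
Percent of the tested members called higher (red, to the right) or lower (blue, to the left) in naive used medium than in salt for the 26 lists with a called member, ordered by median log2 change with the highest at the top, and dotted lines at the shares over all tested genes, 8.09% higher and 6.51% lower. The terrequinone, penicillin, alcohol use and endoplasmic reticulum lists reach 100% higher.

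Beyond the lists, the genes with the largest changes were mostly without a symbol. The largest rise among called genes of at least 10 CPM was that of AN10431, at 83.2 and 52.4 CPM in used medium against 0.309 and 0.169 CPM in salt (log2 change 8.14, SE 0.41, adjusted p 1.72e-07). AN3210 was at 1463 and 3853 CPM in used medium against 11.9 and 10.8 CPM in salt (7.87, SE 0.77, adjusted p 5.08e-05, and 7.01 without used B). AN6782 had 643 and 1210.3 CPM in used medium against 14.4 and 19.1 CPM in salt (5.79, SE 0.52, adjusted p 2.43e-05), and only 0.0489 and 0.0711 CPM in refed cultures. These genes were thus far higher in used medium than in salt, and AN6782 was scarce in refed cultures too. AN0197 (7.26, SE 0.64, adjusted p 2.38e-05) and AN2349 (5.05, SE 0.37, adjusted p 6.90e-06) also kept their calls without any 1 culture. A run of 4 genes called higher went from AN6412 to AN6409, in which AN6410 had 41.8 and 83.7 CPM in used medium and 3.82 and 2.94 CPM in salt (4.22, and 3.63 without used B). In that run AN6411 (1.11) lost its call without salt A (1.04). A further 4 went from AN8957 to agdB, with AN8955 at 91.0 and 203 CPM in used medium and 4.62 and 4.46 CPM in salt (5.02, and 4.32 without used B). There AN8956 (1.42) lost its call without used B (0.80), salt A (1.45) or salt B (1.38), and AN8957 (1.54) without used B (1.31) or salt B (1.05), moving to 2.26 without salt A.

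The largest falls among called genes of at least 10 CPM were those of AN6703, AN7937 and AN4148. AN6703 had 0.869 and 0.405 CPM in used medium, against 35.2 and 34.9 CPM in salt and 0.759 and 0.971 CPM in refed cultures (used medium over salt, log2 change -5.75, SE 0.30, adjusted p 2.80e-07, and -6.43 without used A). It was thus up in salt, and in used medium near its refed level. AN7937 had 43.8 and 40.9 CPM in used medium and 781 and 484 CPM in salt (-3.90, SE 0.27, adjusted p 3.77e-06). AN4148 had 27.3 and 14.7 CPM in used medium and 166 and 199 CPM in salt (-3.12, SE 0.34, adjusted p 1.20e-04).

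A few calls rested on used culture B. AN5245 had 1603 and 22998 CPM in used medium, against 1047 and 1142 CPM in salt, and took 2.44% of the counts of used culture B, more than any other gene. Its log2 change of 3.49 (SE 0.95, adjusted p 0.0284) was 0.55 without used B, and it was called without used A (4.39) but not without salt A (3.43) or salt B (3.55). AN20048 had 52.6 and 2589 CPM in used medium and 34.2 and 23.3 CPM in salt (5.52, SE 1.6, adjusted p 0.0377), and AN20012 0.592 and 31.8 CPM in used medium and 0.390 and 0.492 CPM in salt (5.19, SE 1.55, adjusted p 0.0430). Without used B their log2 changes were 0.87 and 0.42, not called. Nor were they called without salt A (5.82 and 5.03) or salt B (5.27 and 5.36), and without used A their log2 changes were 6.49 and 6.16. In all 3 genes used culture A was close to the salt cultures.

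Against the refed cultures from which both media started, 7632 genes (76.2%) were called in used medium and 7548 (75.3%) in salt, and these comparisons share the refed cultures. For enaA the log2 change from refed cultures was 5.86 in used medium and 3.79 in salt. For prnD it was 4.98 in used medium and 7.44 in salt, and for sidD -6.03 in used medium and -4.52 in salt. For pepJ it was 8.16 in used medium and 4.85 in salt. The genes enaA and pepJ thus lay farther from the refed level in used medium, prnD in salt, and sidD was below the refed level in both. The gene palF, at -1.16 in used medium and -0.34 in salt, was below the refed level too.

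The same media were compared after an earlier starvation, in cultures that the naive comparison did not use. In pre-starved cultures 1706 genes (17.0%) were called between used medium and salt, 904 higher (9.02%) and 802 lower (8.0%). Of the 811 genes higher in naive cultures 452 were also called higher in pre-starved cultures, which is 55.7% of the naive and 50.0% of the pre-starved list, and 0 were called lower. Of the 652 lower in naive cultures 389 were called lower in pre-starved cultures, 59.7% of the naive and 48.5% of the pre-starved list, and 4 were called higher. Across genes, which are not independent, the log2 changes had a Pearson r of 0.675. The gene tdiB had a log2 change of 7.44 in pre-starved cultures (1341 and 1181 CPM in used medium, 8.29 and 6.27 CPM in salt), near the naive 8.09, at levels several times higher. The lists for penicillin (3 of 3), terrequinone (3 of 3), orsellinic acid (3 of 5) and alcohol use (6 of 6) had as many members called higher in pre-starved as in naive cultures. The aspercryptin list had 2 higher and 2 lower there, against 6 higher and 0 lower in naive cultures, but in none of its 12 genes was the difference called.

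The difference of the 2 changes, pre-starved minus naive, was called for 37 genes (0.369%), 27 positive (0.269%) and 10 negative (0.0998%). DESeq2 called 242, and leaving out 1 of the 8 cultures left 7 to 119. The protease gene prtA was higher in used medium in naive cultures and not in pre-starved ones, where it had 506 and 342 CPM in used medium and 373 and 471 CPM in salt (difference -2.0, adjusted p 0.0233). That call was lost without naive used A, naive salt A, naive salt B or pre-starved salt B (-2.31 to -1.66 over the 8 cultures). The isocitrate lyase gene acuD, of the glyoxylate cycle, ran the other way. It had 660.3 and 239.7 CPM in pre-starved used medium, against 94.1 and 53.1 CPM in pre-starved salt, while in naive cultures it had 384 and 294 CPM in used medium and 380.4 and 519 CPM in salt (difference 3.02, adjusted p 0.0412). Leaving out any of 7 of the 8 cultures ended its call (2.11 to 3.57 over the 8). Of 9 gluconeogenesis and glyoxylate genes 7 were called higher in pre-starved cultures and 0 in naive ones (0 at an unadjusted p under 0.05 and 0 by DESeq2), and the difference was called for 3, acuD, acuM (0.84, adjusted p 0.0397) and acuJ (1.13, adjusted p 0.0381), the last 2 lost without 7 and 6 of the 8 cultures (0.72 to 0.96 and 0.97 to 1.31). AN7181 had 2048 and 1800.03 CPM in naive used medium and 74.8 and 80.2 CPM in naive salt, against 2341 and 1899 CPM in pre-starved used medium and 395 and 429 CPM in pre-starved salt (difference -2.27, adjusted p 1.80e-04). The used-medium levels of AN7181 were alike after both histories, and its salt levels were not. Its call, with those of AN8915, AN8083, AN7399, AN1857 and AN6795, held without any 1 of the 8 cultures.

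**Figure D5:**
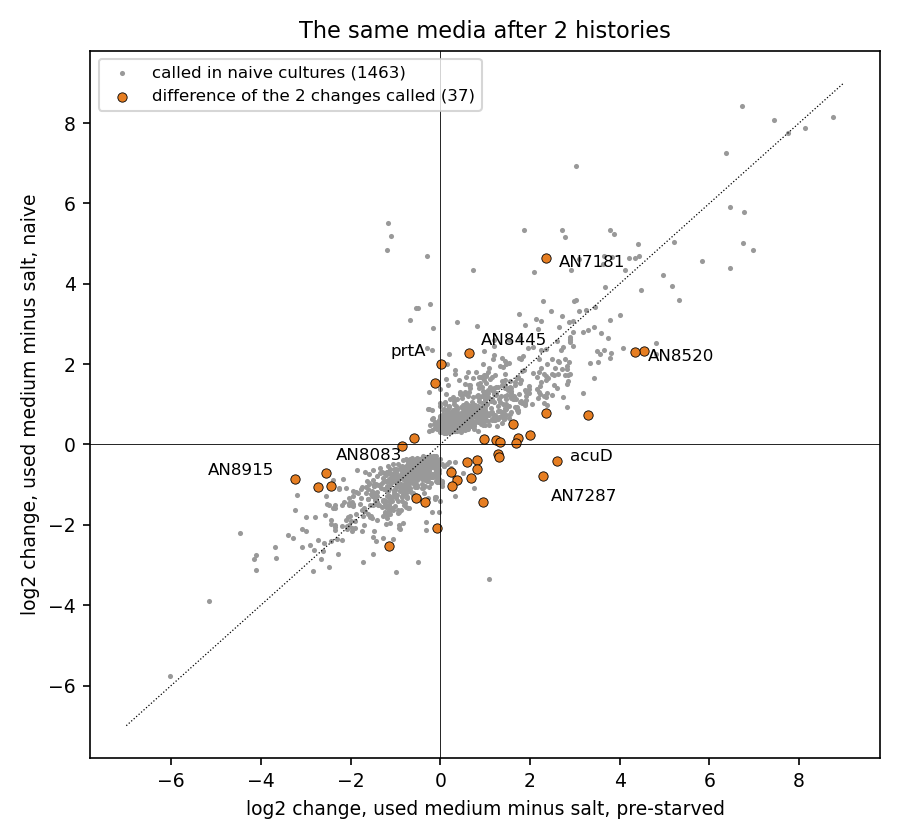
Log2 change between used medium and salt in naive cultures (vertical axis) against that in pre-starved cultures (horizontal axis), with grey points for the 1463 genes called in naive cultures, orange points for the 37 genes whose difference was called, and a dotted line where the changes are equal. Most grey points lie in the lower left and upper right, prtA lies at 2.00 on the vertical axis and near 0 on the horizontal, and acuD lies far to the right at -0.41 on the vertical axis.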

How the data were processed

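Per the labels' protocols, TruSeq v2 libraries of polyadenylated RNA were read as single ends on a HiSeq. Reads were mapped to the assembly of strain FGSC A4, per the labels. Tools given in the submitters' processing notes, with no step for each, are HTSeq, BWA, Trimmomatic 0.36, edgeR and limma. The kit keeps no strand, so overlapping genes cannot be told apart. The authors deposited raw counts per gene and library, which were used here, and log2 FPKM per group with log2 exon lengths, which were not used.

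Technical libraries were summed per culture, the replicate. With R 4.3.3 and edgeR 4.0.16, filterByExpr (minimum count 10, total 15) kept 10022 of 10681 genes, which hold all but 0.00149% of the counts. All 16 cultures entered the fit, with 1 mean for each of 8 groups, after TMM scaling (8 residual and 4.07 prior degrees of freedom, biological coefficient of variation 0.160). Tests were 2-sided. With 2 cultures per group, p-values and SEs rest on the spread between cultures pooled over the 8 groups, not on the 4 cultures compared alone. By the chi-square over its degrees of freedom, in which genes with many counts weigh most, cultures A and B differed most in naive used medium (272). A fit of the 4 cultures alone called 1066 genes. The method was tested on simulated data, in which each gene had the same spread in every group. The larger spread between cultures of naive used medium was thus not covered. DESeq2 1.42.0 and limma 3.58.1 served as alternatives, with other scalings, filters, library choices and left-out cultures.

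The comparison and the 42 gene lists (325 genes from background knowledge, 320 in the table) were chosen with earlier results of these data known. Genes were named by rule: the 15 largest rises and falls among called genes of at least 10 CPM with cultures apart, the extremes of each list and all members of lists of up to 8, the 10 largest called interaction changes each way with at least 10 CPM in the highest of the 4 groups, up to 6 runs of 4 or more neighbours, and the 5 called genes with the lowest and the 5 with the highest mean CPM. Not all are printed, and 1 is withheld and not reported here. Symbols and gene order came from RefSeq's table (assembly ASM1142v1).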

Additional observations from a re-analysis of the deposited data

Results flagged for a closer look

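The change between used medium and salt differed between pre-starved and naive cultures for 37 genes by edgeR's test of that difference. Differences are pre-starved minus naive on the log2 scale. Among called genes with at least 10 CPM in the highest of the 4 groups, the largest negative differences were -2.38 for AN8915, -2.27 for AN7181, -2.0 for prtA, -1.85 for AN8083, -1.66 for AN7399, -1.64 for AN2395, -1.63 for AN8445, -1.40 for AN1857, -0.83 for AN6503 and -0.73 for AN10166. In these genes the largest positive differences were 3.07 for AN7287, 3.02 for acuD, 2.22 for AN11510, 2.06 for AN8520, 2.02 for AN8896, 1.77 for AN8467, 1.65 for AN8406, 1.63 for AN8523, 1.59 for AN0841 and 1.57 for AN1993.

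For AN8083 the pre-starved cultures had 8.50 and 11.3 CPM in used medium and 59.0 and 57.2 CPM in salt, and the naive cultures 235 and 243 CPM in used medium and 383 and 397 CPM in salt. For AN8915 the pre-starved cultures had 25.3 and 25.1 CPM in used medium and 203 and 272 CPM in salt, and the naive cultures 24.9 and 18.8 CPM in used medium and 40.1 and 39.0 CPM in salt. In AN8915 the used-medium levels were thus close after both histories and the salt levels differed.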

How the results depend on the processing

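For naive used medium against salt, 1463 genes were called, 1439 to 1471 with other filters or DESeq2's size factors, 1659 with library totals, 1994 by DESeq2, 2015 by limma on all libraries, 1245 and 1289 from 1 technical library, 1066 from the 4 cultures alone, 549 at an absolute log2 change of at least 1, and 568 to 976 on leaving out 1 culture. In pre-starved cultures 1706 were called, 2585 by limma on all libraries and 816 to 1752 on leaving out 1. For the difference between the histories 37 were called, 59 with size factors, 242 by DESeq2, 453 by limma on all libraries, 7 from the 8 cultures alone and 7 to 119 on leaving out 1. With the culture letter as a replicate block these counts were 1462, 1702 and 50, but the labels state no pairing by letter, and the deviations of cultures A in used medium and salt had an r of -0.23. No call of a named gene reversed, but the majority direction among all called genes did. In naive cultures 811 were higher and 652 lower, against 483 and 1176 with library totals. They were 618 and 847 with size factors and 795 and 1199 by DESeq2. With limma on all libraries 1241 were higher and 774 lower. Of 124 named genes called, 89 kept the call under all alternatives other than leaving out a culture, and 70 without any 1 culture. Limma on all libraries did not call 18 of the 124, among them orsB, stcE, AN7812, dbaA, sidI, AN6238, ivoB, AN8957 and AN20012. After a left-out culture its lone partner is assumed to vary like the other groups. The causes of these shifts were not tested. With 2 cultures per group, small changes of scarce genes were not detectable.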
